A study of Homo sapiens with 60 samples.

Results

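The comparison described here set 3 libraries of A549 cells kept with a water extract of Citri Unshius Pericarpium at its high dose of 500 µg/mL against 3 libraries kept with the DMSO vehicle, across all expressed genes. A549 is an established human lung carcinoma line, and Citri Unshius Pericarpium is the dried peel of the mandarin Citrus unshiu, used in Korean herbal medicine. The 6 libraries were chosen by their labels out of 60 in the series, and all were made from cells collected after 24 h. The series gave extracts at graded doses to these cells, so that the genes answering to each extract could be recorded. Citri at 100 and at 20 µg/mL (3 libraries each) and the water extract of Cimicifugae Rhizoma at 500 µg/mL (3 libraries) serve below only to place the response. All groups were the same line and carried no engineered allele. DMSO was labelled for vehicle alone, at 0.1% on the samples but at 2% in the text on the design, a conflict that could not be settled. Vehicle had a set label of its own, while all Citri and Cimicifugae libraries shared another. Set, solvent and extract thus cannot be told apart in the comparison with vehicle. No label says that the 3 libraries of a group came from separate cultures. The p-values rest on the spread between libraries within groups, taken over 57 libraries of 19 groups, and this spread may be technical.

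As background to the genes that follow, the aryl hydrocarbon receptor is a ligand-activated transcription factor. With its partner ARNT it binds DNA at short elements near genes of the CYP1 family and induces them, and it also induces TIPARP and AHRR, which feed back on the receptor. Cholesterol and fatty acid synthesis are under the control of the SREBP factors. These are held in the endoplasmic reticulum by INSIG proteins when sterols are plentiful and otherwise raise the genes of both pathways, INSIG1 among them. The NR4A family are nuclear receptors transcribed soon after many stimuli. Fibrinogen, made chiefly by liver, has 3 chains from neighbouring genes, and A549 cells transcribe them as well.

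The 6 libraries held between 18894778 and 29611867 counts, and every pair of replicates differed by more than sampling noise. Mitochondrially encoded genes took 8.67, 9.82 and 9.05% of the counts in the Citri high libraries and 8.44, 7.91 and 8.54% in the vehicle libraries, so that the groups did not overlap. Ribosomal protein genes took 5.38 to 5.50% in Citri high and 5.32 to 5.76% in vehicle. Of 12 markers of A549 and lung epithelium, 11 reached 1 CPM (counts per 1000000 counts of the library), and their summed level was 15250 to 15520 CPM in Citri high and 15390 to 16110 CPM in vehicle. The surfactant gene SFTPB was the exception. Of 7 leukocyte markers 2 reached 1 CPM, CD68 with a mean of 6.46 CPM in Citri high and 5.47 CPM in vehicle and CD14 with 1.67 CPM in Citri high and 1.75 CPM in vehicle, while PTPRC and CD3E were at 0 in all 6 libraries. Of 7 fibroblast markers 3 reached 1 CPM, namely COL1A1, ACTA2 and COL3A1, while DCN was at 0 in all 6 libraries. All 6 endothelial markers stayed under 1 CPM.

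Few genes moved with the high dose of Citri. Of 17269 genes tested, 6 rose and 2 fell at an adjusted p under 0.05 (quasi-likelihood test of edgeR, adjusted by Benjamini-Hochberg over all genes), which is 0.0347% and 0.0116% of all genes, or 0.0463% together. An unadjusted p under 0.05 was found for 631 genes (3.65%). The 6 that rose were CYP1B1, CYP1A1 and TIPARP, which the aryl hydrocarbon receptor induces, the sterol sensor INSIG1, the transporter gene SLC29A2 and the poorly described gene UAP1L1. The 2 that fell were the nuclear receptor gene NR4A1 and the fibrinogen alpha chain gene FGA. Folds were small, with 2.17-fold for CYP1A1 and 1.75-fold for CYP1B1 as the largest of the 8. Over all genes the fitted log2 folds had a median of -0.00084, and their percentiles at 5 and 95 were -0.32 and 0.39.

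**Figure D1:**
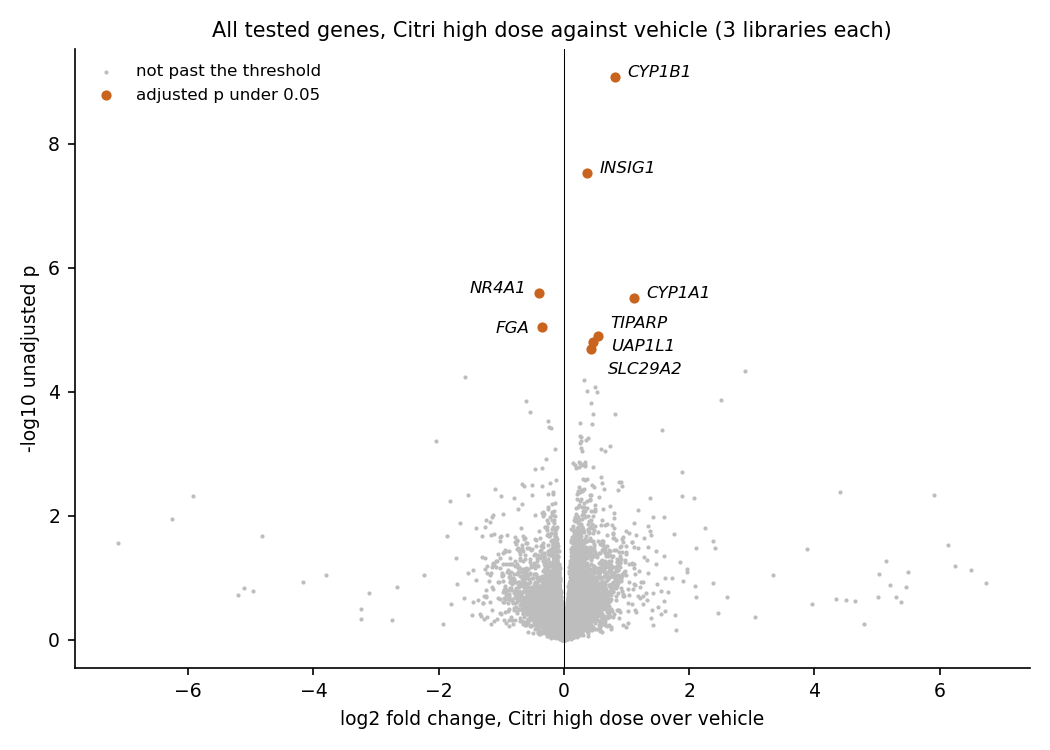
Each of the 17269 tested genes is drawn by its fitted log2 fold change of Citri high over vehicle (x axis) and the negative log10 of its unadjusted p (y axis), with the 8 genes past an adjusted p of 0.05 in orange and named. CYP1B1 and INSIG1 stand above the rest, and the grey points far to either side are genes that did not pass the threshold.

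The number of genes called rested on every library. With vehicle library 2 left out it was 5, and with any other of the 6 left out it was 2, namely CYP1B1 and INSIG1. A fit of the 6 libraries alone called 52 genes, DESeq2 called 16 and a fit without a filter on low counts called 5. CYP1B1 and INSIG1 passed the threshold under all 14 alternatives tried, with adjusted p from 7.29e-10 to 0.000792 for CYP1B1 and from 5.62e-08 to 0.0374 for INSIG1.

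**Figure D2:**
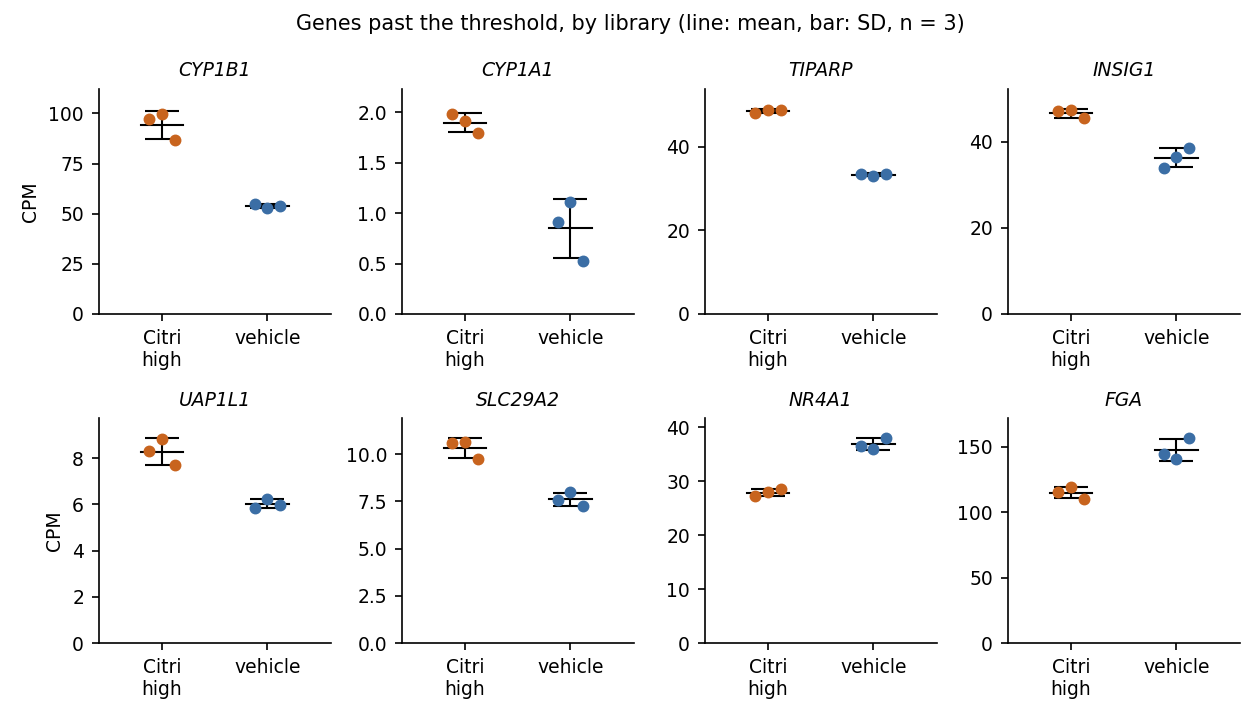
CPM of the 8 genes past the threshold in each library, Citri high in orange and vehicle in blue, each on its own axis from 0, with the mean (line) and SD (bar) of 3 libraries. In no panel do the groups overlap, and only NR4A1 and FGA are lower in Citri high.

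CYP1B1, CYP1A1 and TIPARP rose together with the high dose. CYP1B1 (ENSG00000138061, chr2:38066973-38109902), a cytochrome P450 that oxidises polycyclic hydrocarbons and oestrogens, had 97.05, 99.75 and 86.5 CPM in the Citri high libraries, against 55.0, 52.7 and 53.9 CPM in the vehicle libraries. Every Citri library thus lay above every vehicle library, and the vehicle values were close together. The means were 94.4 ± 6.99 CPM in Citri high and 53.9 ± 1.17 CPM in vehicle (SD, n = 3 each), a log2 fold of 0.81 ± 0.10 (SE, edgeR adjusted p = 1.46e-05). Because each library pooled many cells, more cells with the transcript and more transcript per cell cannot be told apart.

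CYP1A1 (ENSG00000140465, chr15:74719542-74725610), the cytochrome P450 best known as a readout of the receptor, was a rare transcript. It had 1.98, 1.91 and 1.79 CPM in Citri high, against 0.914, 1.11 and 0.524 CPM in vehicle. These levels rested on 60, 45 and 54 counts in the Citri high libraries and 24, 30 and 10 counts in the vehicle libraries, so that the lowest vehicle value is the least certain. The groups did not overlap, with a log2 fold of 1.12 ± 0.21 (SE, edgeR adjusted p = 0.013). Scaled for exon length as well as depth, CYP1A1 stood at 0.552 RPKM in Citri high and CYP1B1 at 15.7 RPKM. The adjusted p of CYP1A1 lay between 0.00529 and 0.168 over the alternatives, and of the 6 fits that left out a library only the one without vehicle library 2 kept it past the threshold.

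TIPARP (ENSG00000163659, chr3:156673235-156706770) encodes a mono-ADP-ribosyltransferase of the PARP family that is induced by the receptor and restrains it. Its level was 48.2, 49.0 and 48.8 CPM in Citri high, against 33.6, 33.1 and 33.5 CPM in vehicle. Spread within each group was very small beside the gap between them, and the log2 fold was 0.54 ± 0.11 (SE, edgeR adjusted p = 0.0368). The error is that of the shared fit, which takes the spread of the gene from 57 libraries. In a fit of the 6 libraries alone the adjusted p was 1.03e-05, and it ranged up to 0.267 over the alternatives, passing in none of the 6 fits that left out a library.

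To show what lies at the starts of the genes induced by the receptor, the promoter of 1 transcript start of each of CYP1A1 and TIPARP is printed, from 250 bases before the start to 50 after it (RefSeq, build GRCh38.p14). CYP1A1 is read from the minus strand of chr15:74725479-74725778 and TIPARP from the plus strand of chr3:156674340-156674639, which is 1 of 3 windows listed for that gene and the only one of them that holds the core named next. Capitals mark the core of the dioxin response element, GCGTG or its reverse complement, and the CCAAT box or its reverse complement. No 2 marked motifs overlap.
CYP1A1: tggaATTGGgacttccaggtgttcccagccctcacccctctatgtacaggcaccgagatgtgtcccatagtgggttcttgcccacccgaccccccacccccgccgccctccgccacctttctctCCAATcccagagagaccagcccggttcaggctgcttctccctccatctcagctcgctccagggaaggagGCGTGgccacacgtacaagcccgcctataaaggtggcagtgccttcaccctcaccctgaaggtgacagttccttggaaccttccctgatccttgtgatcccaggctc
TIPARP: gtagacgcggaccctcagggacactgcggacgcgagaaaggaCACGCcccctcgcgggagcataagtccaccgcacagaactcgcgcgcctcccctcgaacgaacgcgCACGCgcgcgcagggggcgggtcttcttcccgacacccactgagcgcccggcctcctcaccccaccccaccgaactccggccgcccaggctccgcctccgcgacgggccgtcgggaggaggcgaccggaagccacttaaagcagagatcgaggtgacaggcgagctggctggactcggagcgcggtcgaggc
The core begins 57 bases before the start in CYP1A1, and in TIPARP it is found on the other strand at 208 and 142 bases before the start. Searched on both strands, GCGTG was in 36.5% of 35116 promoter windows of this length and CCAAT in 34.6%, so that a match to either is common.

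The rest of the receptor's list was mixed. Of 12 target genes 10 passed the filter on low counts, and 3 of them rose past the threshold, as did 0.0347% of all genes. Of the 10 tested, 9 had a log2 fold above 0, and the median was 0.16, against -0.00084 over all genes. AHRR (ENSG00000063438), the receptor's repressor, had 3.64, 4.46 and 3.79 CPM in Citri high, against 2.78, 2.95 and 2.62 CPM in vehicle. The groups did not overlap, but with a log2 fold of 0.50 ± 0.18 (SE) and an unadjusted p of 0.00828 it did not pass the edgeR test after adjustment (adjusted p = 1.0). ALDH3A1, an aldehyde dehydrogenase, had 836.1, 870.9 and 729.5 CPM in Citri high and 653.4, 636.4 and 736.7 CPM in vehicle, with an overlap by the lowest Citri library. NQO1, a quinone reductase that this line transcribes heavily, averaged 1607 ± 18.1 CPM in Citri high and 1603 ± 51.3 CPM in vehicle (SD, n = 3 each), a log2 fold of 0.0037 ± 0.11 (SE).

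Among the receptor itself and its partners, 8 genes in all, none passed but TIPARP, which is on the list of targets as well. AHR, the receptor, had 42.9, 45.0 and 43.4 CPM in Citri high, against 50.2, 49.7 and 49.6 CPM in vehicle. The Citri values were all lower, yet the log2 fold of -0.19 ± 0.12 (SE) had an unadjusted p of 0.109. ARNT, the partner in DNA binding, had a log2 fold of 0.02 ± 0.12 (SE).

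INSIG1 (ENSG00000186480, chr7:155297776-155310235), whose protein retains the SREBP factors in the endoplasmic reticulum and is itself an SREBP target, rose. Its level was 47.0, 47.4 and 45.4 CPM in Citri high, against 33.9, 36.4 and 38.5 CPM in vehicle. The lowest Citri library lay above the highest vehicle library, and the means were 46.6 ± 1.05 CPM in Citri high and 36.3 ± 2.31 CPM in vehicle (SD, n = 3 each). The log2 fold was 0.36 ± 0.05 (SE, edgeR adjusted p = 0.000255).

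As the gene of this pathway that passed, INSIG1 is shown with its promoter in the same way (RefSeq, GRCh38.p14, plus strand of chr7:155297628-155297927), with the capitals marking the same 2 motifs.
INSIG1: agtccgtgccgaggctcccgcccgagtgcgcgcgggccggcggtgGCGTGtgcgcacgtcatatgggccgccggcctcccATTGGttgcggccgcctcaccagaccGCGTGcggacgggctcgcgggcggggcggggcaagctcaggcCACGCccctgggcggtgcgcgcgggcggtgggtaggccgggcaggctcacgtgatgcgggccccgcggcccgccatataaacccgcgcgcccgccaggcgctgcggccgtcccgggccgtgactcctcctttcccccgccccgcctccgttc
It holds the GCGTG core at 205 and 144 bases before the start and on the other strand at 102, and a CCAAT box on the other strand at 170. A common form of the sterol regulatory element, TCACNCCAC, was searched on both strands as well. It was in 1.13% of all windows. Of the promoters printed here, only that of TIPARP holds it, beginning 86 bases before the start and not in capitals. The INSIG1 window does not hold it, and neither do the windows listed for LSS, MSMO1, SREBF1, FADS2 and SCD, which are named below.

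Genes of lipid synthesis were mostly a little higher in the high dose, although INSIG1 alone passed the test in the shared fit. Over the lists for cholesterol synthesis, sterol sensing and uptake, and fatty acid synthesis together, 42 genes were tested. Of these, 38 had a log2 fold above 0, 24 had all 3 Citri libraries above all 3 vehicle libraries and 0 had them all below, where the first of these arrangements was met by 7.9% and the second by 7.83% of all genes. Their median log2 fold was 0.12, and 13 had an unadjusted p under 0.05 in the upward direction, against 2.37% of all genes.

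**Figure D3:**
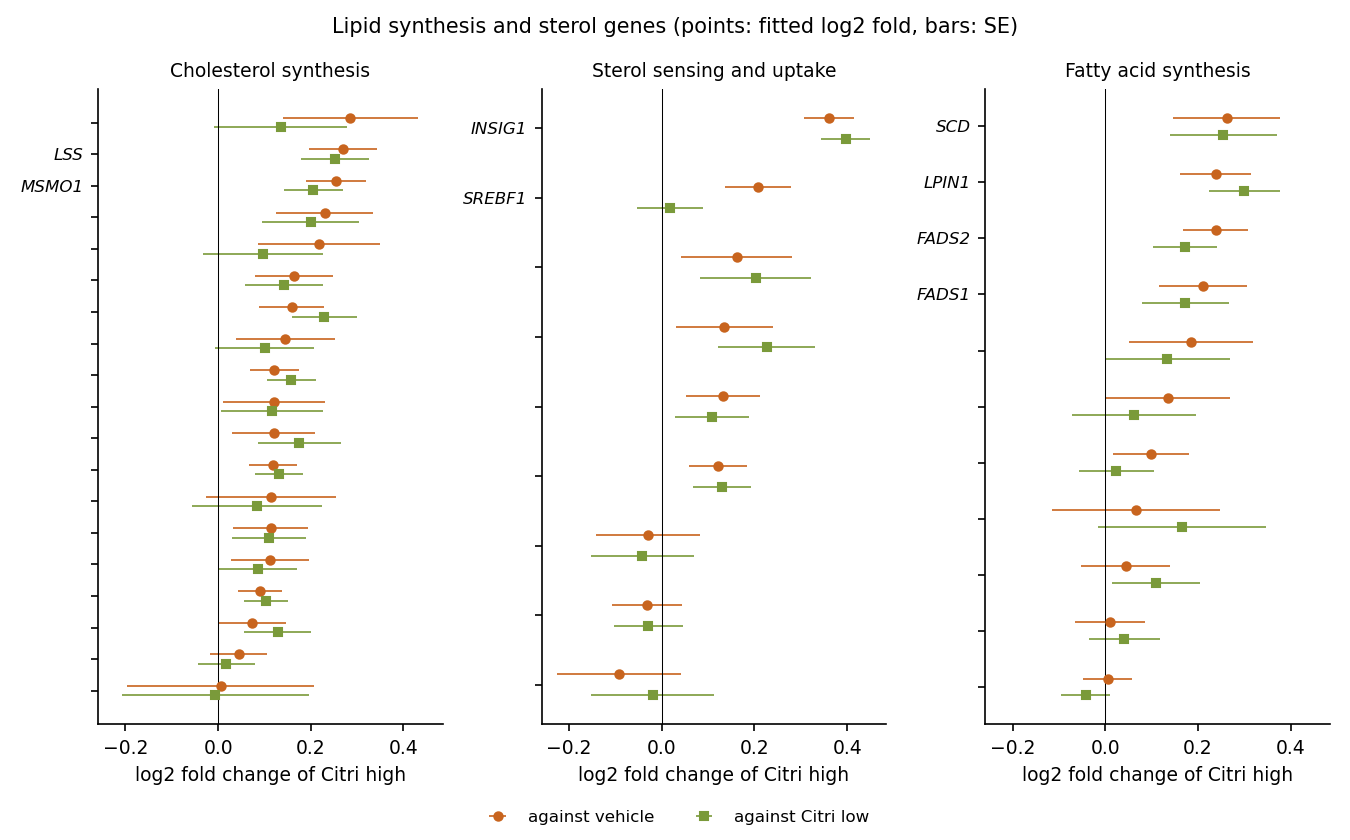
Fitted log2 fold changes of Citri high over vehicle (orange circles) and over the low dose of Citri (green squares) for most tested genes of 3 lipid lists, with SE bars, sorted within each list by the fold over vehicle and named where the text gives their values. Most points lie right of 0 in both comparisons, which share the Citri high libraries, and INSIG1 lies farthest right.

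In cholesterol synthesis, 19 of 20 genes had a log2 fold above 0, with a median of 0.12, and 13 were higher without overlap (7.9% of all genes). MSMO1, a sterol C4-methyl oxidase, had 49.4, 45.0 and 45.75 CPM in Citri high and 37.3, 39.6 and 40.6 CPM in vehicle (log2 fold 0.25 ± 0.06, SE, edgeR adjusted p = 0.246). LSS, which folds squalene epoxide into lanosterol, had 47.5, 46.8 and 45.1 CPM in Citri high and 39.1, 37.4 and 39.2 CPM in vehicle (log2 fold 0.27 ± 0.07, SE, edgeR adjusted p = 0.334). Both genes were higher in each Citri library, and neither passed after adjustment in the shared fit. On the 6 libraries alone the edgeR adjusted p was 0.0202 for LSS, which passed, and 0.0501 for MSMO1, which did not.

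Among genes of sterol sensing and uptake, 11 of 12 were tested, of which 8 had a log2 fold above 0 and 3 below. Higher without overlap were 5 of them (7.9% of all genes). SREBF1, which encodes SREBP-1, had 173.6, 185.1 and 171.8 CPM in Citri high and 150.4, 154.5 and 154.2 CPM in vehicle (log2 fold 0.21 ± 0.07, SE, unadjusted p = 0.00538). It was higher in each Citri library and did not pass after adjustment in the shared fit, whereas on the 6 libraries alone it did (edgeR adjusted p = 0.0305).

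All 11 tested genes of fatty acid synthesis had a log2 fold above 0, with a median of 0.13. Of these 6 were higher without overlap (7.9% of all genes). FADS2, the delta-6 desaturase, had 468.3, 462.5 and 454.8 CPM in Citri high and 399.2, 383.9 and 392.0 CPM in vehicle (log2 fold 0.24 ± 0.07, SE, edgeR adjusted p = 0.549). SCD, the stearoyl-CoA desaturase, had 1110, 1103 and 1027 CPM in Citri high and 922.9, 904.2 and 875.3 CPM in vehicle (log2 fold 0.26 ± 0.12, SE). LPIN1, a phosphatidate phosphatase, had 65.4, 64.05 and 62.8 CPM in Citri high and 56.1, 54.8 and 51.9 CPM in vehicle (log2 fold 0.24 ± 0.08, SE). None passed in the shared fit, whereas on the 6 libraries alone FADS2 (adjusted p = 0.00768), SCD (0.0114), LPIN1 (0.0332) and FADS1 (0.0126) did.

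All 3 NR4A receptor genes were lower in every Citri high library than in every vehicle library, as were 7.83% of all genes. NR4A1 alone passed the test, as did 0.0116% of all genes in the downward direction. Each of the 3 had an unadjusted p under 0.05 in the downward direction, as 1.28% of all genes did. NR4A1 (ENSG00000123358, chr12:52022832-52059507), also known as Nur77, had 27.2, 28.05 and 28.5 CPM in Citri high, against 36.6, 36.0 and 38.1 CPM in vehicle. The gap between the groups was several times the spread within them, with a log2 fold of -0.40 ± 0.07 (SE, edgeR adjusted p = 0.013). NR4A3 (Nor1) had 6.78, 5.99 and 5.45 CPM in Citri high and 8.83, 8.67 and 7.49 CPM in vehicle (log2 fold -0.46 ± 0.14, SE, unadjusted p = 0.00178, adjusted p = 0.569). NR4A2 (Nurr1), the rarest, had 2.41, 3.27 and 2.96 CPM in Citri high and 3.27, 3.95 and 3.67 CPM in vehicle, with its highest Citri value just under its lowest vehicle value. With 1 library left out at a time, the adjusted p of NR4A1 was 0.044 without vehicle library 2 and between 0.0514 and 0.131 without any other.

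Other early response genes were mixed. Of 16 tested immediate-early factors 12 had a log2 fold above 0, with a median of 0.05, and none passed in the shared fit. EGR1 averaged 1.23 ± 0.18 CPM in Citri high and 1.55 ± 0.16 CPM in vehicle, and FOS averaged 3.20 ± 0.27 CPM in Citri high and 3.05 ± 0.33 CPM in vehicle (SD, n = 3 each). JUN had 36.0, 39.5 and 39.2 CPM in Citri high and 32.8, 35.7 and 34.7 CPM in vehicle, a log2 fold of 0.15 ± 0.07 (SE).

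FGA (ENSG00000171560, chr4:154583126-154590766), the alpha chain of fibrinogen, fell. It had 115.7, 118.9 and 110.1 CPM in Citri high, against 144.7, 140.3 and 156.6 CPM in vehicle. The groups stood well apart, and the log2 fold was -0.36 ± 0.07 (SE, edgeR adjusted p = 0.0309). The other chains, whose genes lie beside it on the chromosome, were also lower in each Citri library without overlap, as were 7.83% of all genes. FGB, the beta chain, had 138.6, 139.8 and 136.6 CPM in Citri high and 161.5, 160.5 and 172.4 CPM in vehicle (log2 fold -0.25 ± 0.06, SE, edgeR adjusted p = 0.243). FGG, the gamma chain, had 70.1, 71.3 and 65.3 CPM in Citri high and 80.5, 76.5 and 89.9 CPM in vehicle (log2 fold -0.26 ± 0.08, SE, edgeR adjusted p = 0.879). On the 6 libraries alone FGB passed as well (adjusted p = 0.00909), and DESeq2 gave it 0.0269. The adjusted p of FGA ranged up to 0.256, in the fit without Citri high library 3.

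The FGA promoter is printed as that of a gene that fell (RefSeq, GRCh38.p14, minus strand of chr4:154590693-154590992), with the same marking.
FGA: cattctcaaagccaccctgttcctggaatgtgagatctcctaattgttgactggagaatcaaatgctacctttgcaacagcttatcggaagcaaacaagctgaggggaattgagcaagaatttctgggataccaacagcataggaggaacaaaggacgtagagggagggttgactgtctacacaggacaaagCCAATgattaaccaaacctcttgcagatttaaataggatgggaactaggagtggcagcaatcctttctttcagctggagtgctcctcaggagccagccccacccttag
Its window holds a CCAAT box 58 bases before the start, and the letters GCGTG and TCACNCCAC are not in it. NR4A1, the other gene that fell, has 2 windows listed, and GCGTG is in 1 of them.

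The other acute phase genes did not pass. Of 12 genes on that list 7 passed the filter, and SERPINA1, SERPINA3 and TF among them had under 2 CPM in each of the 6 libraries. FGL1, a fibrinogen-like protein, had 8.70, 8.84 and 8.57 CPM in Citri high and 7.69, 9.19 and 11.4 CPM in vehicle, with the Citri values inside the vehicle range. Against the low dose of Citri 5 of the 7 were lower without overlap (7.08% of all genes), the fibrinogen chains, FGL1 and SERPINA1, and FGA alone passed there.

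SLC29A2 (ENSG00000174669, chr11:66362521-66372214) and UAP1L1 (ENSG00000197355, chr9:137077501-137084539) completed the genes past the threshold. SLC29A2, an equilibrative nucleoside transporter, had 10.6, 10.6 and 9.73 CPM in Citri high, against 7.58, 7.97 and 7.28 CPM in vehicle (log2 fold 0.44 ± 0.09, SE, edgeR adjusted p = 0.0437). UAP1L1, a relative of the enzyme that makes UDP-N-acetylglucosamine, had 8.30, 8.84 and 7.71 CPM in Citri high, against 5.86, 6.24 and 5.97 CPM in vehicle (log2 fold 0.46 ± 0.09, SE, edgeR adjusted p = 0.0392). Neither pair of groups overlapped, yet both genes lay close to the threshold. Neither passed in any of the 6 fits that left out a library, where the adjusted p reached 0.342 for SLC29A2 and 0.406 for UAP1L1. Without a filter on low counts it was 0.287 for SLC29A2 and 0.334 for UAP1L1. SLC29A2 also had 0.0696 once mitochondrial genes were removed, and UAP1L1 had 0.0508 on the 6 libraries alone.

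Just past these came genes that differed in each library but were not called in the shared fit. STK32B, a serine/threonine kinase gene, had 33.6, 33.9 and 33.3 CPM in Citri high and 26.2, 27.5 and 27.0 CPM in vehicle (log2 fold 0.32 ± 0.07, SE, edgeR adjusted p = 0.0996). FA2H, which hydroxylates fatty acids of sphingolipids, had 22.5, 21.9 and 21.96 CPM in Citri high and 16.8, 15.8 and 18.96 CPM in vehicle (log2 fold 0.37 ± 0.09, SE, edgeR adjusted p = 0.124). GREM1, a secreted BMP antagonist, averaged 6.71 ± 0.28 CPM in Citri high and 4.66 ± 0.52 CPM in vehicle (SD, n = 3 each). These genes, LZTS3 and RAP1GAP (a GTPase activator for RAP1) had log2 folds from 0.32 to 0.53. COL1A1, a collagen chain of the fibroblast list, had 37.2, 37.8 and 39.2 CPM in Citri high and 32.9, 32.0 and 31.7 CPM in vehicle, while DCN on that list was at 0 in each library. Scaled by library totals without TMM, the 7 genes of that list summed to 46.7 to 50.25 CPM in Citri high and 42.7 to 43.6 CPM in vehicle. COL1A1 made up most of this sum, while ACTA2 averaged 7.25 CPM in Citri high and 7.80 CPM in vehicle, and COL3A1 averaged 1.89 CPM in Citri high and 1.98 CPM in vehicle. The part of such cells in these values was not tested.

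In the other direction, KLF9, a Krüppel-like factor induced by glucocorticoids, had 3.47, 3.65 and 4.02 CPM in Citri high and 4.76, 5.43 and 6.18 CPM in vehicle (log2 fold -0.55 ± 0.13, SE, edgeR adjusted p = 0.2). ANGPTL4, an inhibitor of lipoprotein lipase, had 20.5, 21.0 and 20.5 CPM in Citri high and 25.9, 25.9 and 26.7 CPM in vehicle, with a log2 fold of -0.34 ± 0.13 (SE) and an unadjusted p of 0.00993. The imprinted long noncoding RNA H19 had 73.2, 68.0 and 64.5 CPM in Citri high and 86.3, 83.0 and 93.7 CPM in vehicle (log2 fold -0.35 ± 0.11, SE, edgeR adjusted p = 0.555). All 3 were lower in each Citri library. Further down lay LBH (-0.21), POP1 of the RNase P complex (-0.29), HEXIM1, an inhibitor of the elongation factor P-TEFb (-0.15), and CHP1 (-0.13), given as log2 folds. None of them passed the adjusted threshold in the shared fit. POP1 passed on the 6 libraries alone (edgeR adjusted p = 0.0332), and LBH (adjusted p = 0.0319) and HEXIM1 (0.0269) passed with DESeq2.

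**Figure D4:**
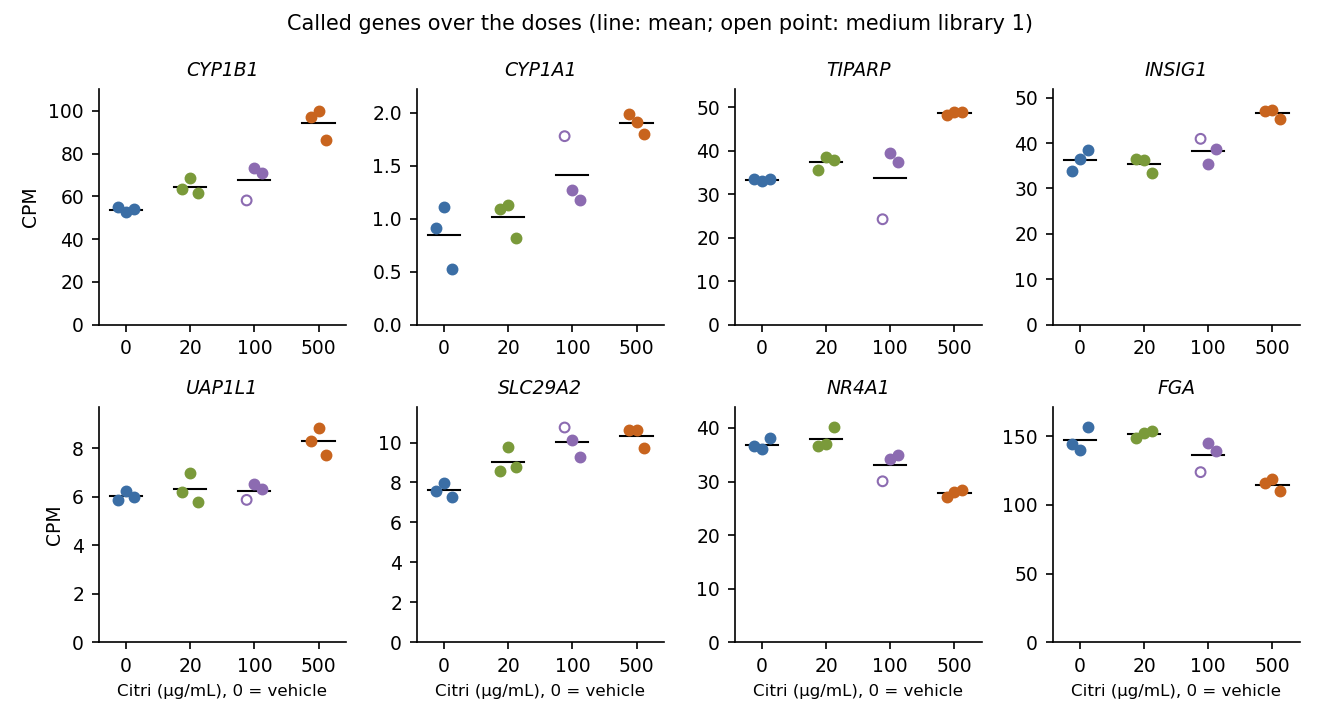
CPM of the 8 genes past the threshold in vehicle (0) and in Citri at 20, 100 and 500 µg/mL, 3 libraries each, with the mean as a line; the open point is library 1 of the medium dose, which stood apart. In CYP1B1, CYP1A1, TIPARP, INSIG1 and UAP1L1 all points at 500 µg/mL lie above all others, and in NR4A1 and FGA they lie below all others.

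The low and medium doses share the set label of the high dose and place its values without the vehicle libraries. Library 1 of the medium dose stood apart in its make-up, with 8.99% of its counts from ribosomal protein genes, so that the medium dose is given by library only. Against the low dose of 20 µg/mL, 4 of 17269 genes passed (edgeR, 0.0232%), of which 2 rose and 2 fell. Both comparisons contain the Citri high libraries and are not independent.

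CYP1B1 had 97.05, 99.75 and 86.5 CPM at the high dose, against 63.5, 68.4 and 61.6 CPM at the low dose (log2 fold 0.55 ± 0.10, SE, edgeR adjusted p = 0.013), with 58.1, 73.4 and 71.0 CPM at the medium dose. INSIG1 had 47.0, 47.4 and 45.4 CPM at the high dose, against 36.4, 36.3 and 33.5 CPM at the low dose (log2 fold 0.40 ± 0.05, SE, edgeR adjusted p = 5.2e-05), with 40.9, 35.3 and 38.6 CPM at the medium dose. Both rose beyond the low dose, where INSIG1 lay near its vehicle values. NR4A1 had 27.2, 28.05 and 28.5 CPM at the high dose, against 36.6, 37.0 and 40.1 CPM at the low dose (log2 fold -0.44 ± 0.07, SE, edgeR adjusted p = 0.00335). FGA had 115.7, 118.9 and 110.1 CPM at the high dose, against 148.8, 152.7 and 154.2 CPM at the low dose (log2 fold -0.40 ± 0.07, SE, edgeR adjusted p = 0.00589). Both fell, and their low dose values lay with those of vehicle. The count of 4 became 1 without Citri high library 1 and also without Citri low library 3, INSIG1 alone remaining each time, and 33 on the 6 libraries alone.

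The other 4 genes did not pass against the low dose. CYP1A1 had 1.98, 1.91 and 1.79 CPM at the high dose, against 1.09, 1.13 and 0.816 CPM at the low dose (log2 fold 0.90 ± 0.20, SE, edgeR adjusted p = 0.117). TIPARP had 48.2, 49.0 and 48.8 CPM at the high dose, against 35.7, 38.6 and 37.98 CPM at the low dose (log2 fold 0.38 ± 0.11, SE, unadjusted p = 0.00118). UAP1L1 had 8.30, 8.84 and 7.71 CPM at the high dose, against 6.21, 6.99 and 5.79 CPM at the low dose (log2 fold 0.39 ± 0.09, SE, edgeR adjusted p = 0.218). In these 3 the doses did not overlap, whereas SLC29A2, at 10.6, 10.6 and 9.73 CPM at the high dose against 8.59, 9.76 and 8.75 CPM at the low dose, overlapped. FGB and FGG had log2 folds of -0.28 ± 0.06 and -0.36 ± 0.08 (SE) against the low dose, again lower with no overlap (7.08% of all genes). Of the 42 lipid genes, 37 had a log2 fold above 0 and 28 were higher than the low dose without overlap (6.61% of all genes) and 1 was lower (7.08%), with a median of 0.12.

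Cimicifugae Rhizoma at the same dose, under the same set label, differed from Citri high in 119 of 17269 genes (edgeR, 0.689%), 74 higher (0.429%) and 45 lower (0.261%) in Citri high. Of 10 tested targets of the aryl hydrocarbon receptor, CYP1B1, CYP1A1 and TIPARP were lower in Citri high than in Cimicifugae high, and the others did not pass, among them AHRR (log2 fold -0.45 ± 0.17, SE, edgeR adjusted p = 0.3995). CYP1B1 had 97.05, 99.75 and 86.5 CPM in Citri high, against 134.2, 143.8 and 139.7 CPM in Cimicifugae high (log2 fold -0.56 ± 0.10, SE, edgeR adjusted p = 0.000814). CYP1A1 stood at 5.074, 5.198 and 5.422 CPM in Cimicifugae high (log2 fold of Citri over Cimicifugae -1.46 ± 0.17, SE, edgeR adjusted p = 3.78e-07) and TIPARP at 72.0, 74.0 and 71.4 CPM there (-0.57 ± 0.11, adjusted p = 0.00142). All 3 genes were lower without overlap, as were 11.7% of all genes.

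NR4A1 was higher in Citri high than in Cimicifugae high, by a log2 fold of 0.89 ± 0.08 (SE, edgeR adjusted p = 1.09e-10). It had 27.2, 28.05 and 28.5 CPM in Citri high and 15.9, 15.5 and 13.7 CPM in Cimicifugae high. Vehicle had 36.6, 36.0 and 38.1 CPM, so that NR4A1 was below vehicle in both extracts. Of all genes 12.3% were higher in Citri high than in Cimicifugae high without overlap. NR4A3 likewise was higher in Citri high by a log2 fold of 0.86 ± 0.15 (SE, edgeR adjusted p = 0.000475). FGA was lower in Citri high than in Cimicifugae high, which had 137.6, 144.6 and 137.1 CPM, by a log2 fold of -0.28 ± 0.07 (SE, edgeR adjusted p = 0.041). For INSIG1 the difference was -0.07 ± 0.05 on the log2 scale (SE, edgeR adjusted p = 1.0), with 50.4, 47.8 and 48.8 CPM in Cimicifugae high. That of SLC29A2 was 0.01 ± 0.09 (SE). On the 6 libraries alone 1078 genes differed between these extracts, in a fit less Citri medium library 1 the count was 192, and leaving out a library gave 62 to 71.

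**Figure D5:**
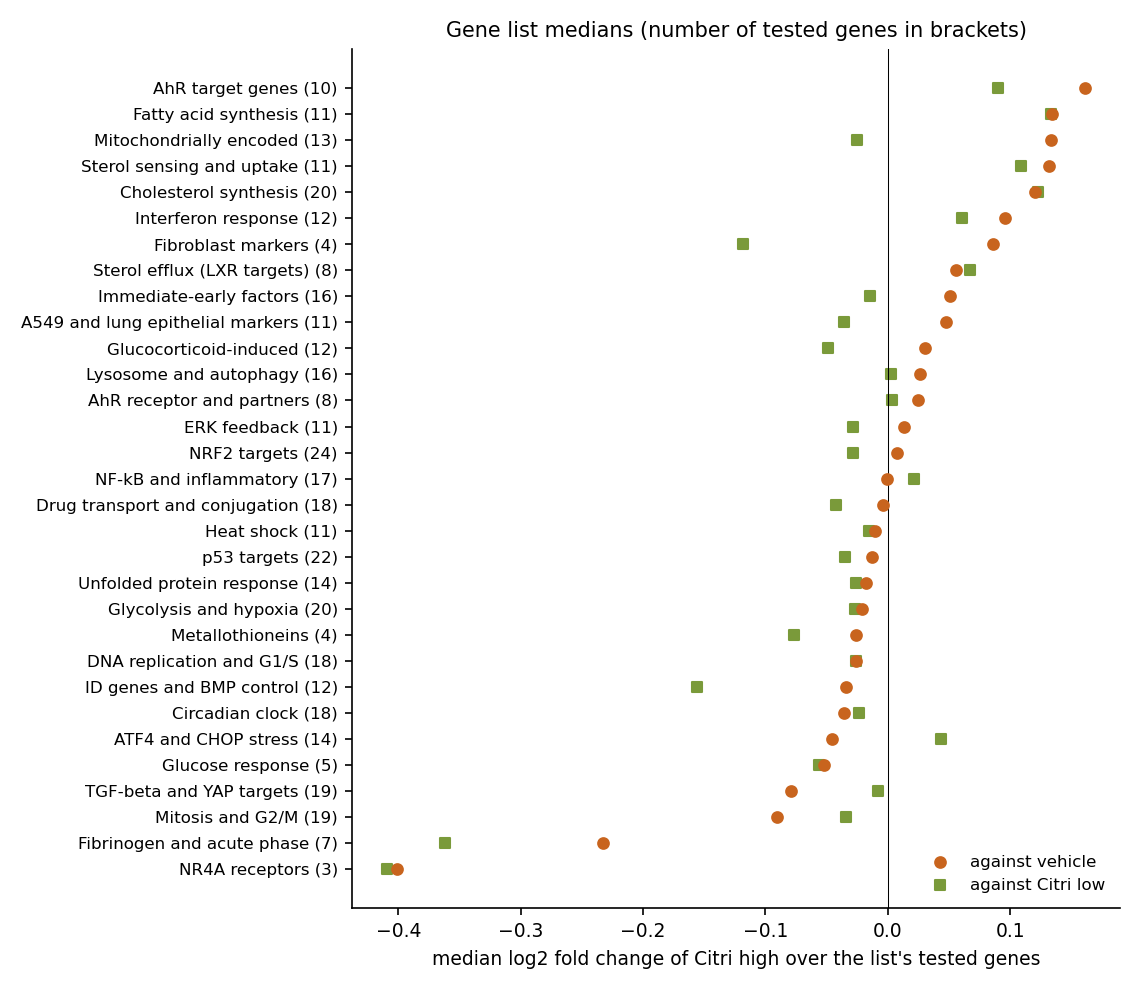
Median fitted log2 fold change of Citri high over vehicle (orange circles) and over the low dose of Citri (green squares) for each gene list with at least 3 tested genes, the number tested in brackets. The 3 lipid lists lie between 0.11 and 0.13 in both, the NR4A list near -0.40 in both, and most others within 0.1 of 0.

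Most other pathways gave medians near 0 and no called gene. The unfolded protein response (14 genes tested), heat shock (11), p53 targets (22), glycolysis and hypoxia (20) and drug transport and conjugation (18) had median log2 folds from -0.02 to -0.0037. Among 24 targets of NRF2, a factor constitutively active in this line, the median was 0.01 and HMOX1, heme oxygenase, was the 1 gene with an unadjusted p under 0.05. HMOX1 had 193.6, 210.8 and 204.7 CPM in Citri high and 164.6, 158.4 and 175.9 CPM in vehicle (log2 fold 0.29 ± 0.09, SE, edgeR adjusted p = 0.553).

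Genes of mitosis were slightly lower, without any called. Of 19 tested, 18 had a log2 fold below 0 and 10 were lower without overlap (7.83% of all genes), with a median of -0.09 against vehicle. Against the low dose 11 were below 0 and the median was -0.03. The kinase gene BUB1, the member with the smallest p, named after its values were seen, had 110.9, 107.9 and 110.3 CPM in Citri high and 122.3, 124.7 and 120.1 CPM in vehicle (log2 fold -0.16 ± 0.08, SE, unadjusted p = 0.0536).

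All 13 mitochondrially encoded genes had a log2 fold above 0 against vehicle, with a median of 0.13. Of them 1 was higher without overlap, a share near the 7.9% of all genes. With these genes removed before scaling, 7 genes were called instead of 8. Against the low dose, which shares the set label, 3 of 13 were above 0 and the median was -0.03. MT-ATP6, a subunit of ATP synthase, had 4708, 5930 and 5359 CPM in Citri high and 4119, 4134 and 4708 CPM in vehicle (log2 fold 0.30 ± 0.15, SE, unadjusted p = 0.0458). Its level at the low dose was 6066, 5111 and 5202 CPM, and at the medium dose 5838, 4092 and 5360 CPM, so that the lowest medium library lay below all vehicle libraries.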

How the data were processed

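RNA was sequenced 24 h after treatment. The authors deposited RSEM expected counts for each gene without normalization, 9.37% of them not whole. Tools named in the submitters' processing notes are RSEM 1.3.3, STAR 2.7.3a, Trim Galore 0.6.5 and FastQC 0.11.9, on GRCh38 (hg38). The annotation release and strand setting are not given in the sources used here, so overlapping and antisense genes are uncertain. Of 269 sample columns 60 matched the series and 209 were not used. Of 60675 identifiers 57055 were found in GENCODE 29, which gave names and coordinates.

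Counts were rounded and fitted with edgeR 4.0.16 (R 4.3.3) quasi-likelihood after TMM scaling and its default filter (17269 genes kept). The model shared 57 libraries of 19 groups, 3 in each, and had 38 residual degrees of freedom and a biological coefficient of variation of 10.1%. Benjamini-Hochberg adjustment ran over all genes, with a threshold of 0.05. An SE is the log2 fold divided by the root of its F. CPM used TMM library sizes, except for marker sums, which used totals, and RPKM divided CPM by exon length. Of these steps, only the shared fit for Citri high against vehicle was run on simulated counts, with the same spread set for every gene.

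Described genes were all those past the threshold, the 10 with the smallest p in each direction at 5 CPM or more, up to 3 members of each of 33 lists with an unadjusted p under 0.05, and a panel of known targets. A few genes of these lists and of the panel are not reported here. Members, lists and tests were chosen with earlier results of these data known. Alternatives were RLE size factors, DESeq2 1.42.0, no filter, the 6 samples alone, a replicate block, a robust prior, Citri medium library 1 left out, mitochondrial genes removed, and each library left out in turn.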

Additional observations from a re-analysis of the deposited data

How the results depend on the processing

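Against vehicle, 8 genes were called. The count was 5 without a filter on low counts, 52 on the 6 libraries alone, 16 with DESeq2, and 2 to 5 with a library left out. It was 7 to 10 with RLE size factors, a robust prior, the mitochondrial genes removed, or Citri medium library 1 left out. Against the low dose of Citri, 4 genes were called, 33 on the 6 libraries alone and 1 to 4 with a library left out. Against Cimicifugae high, 119 were called, 63 without the filter, 1078 on the 6 libraries alone, 192 less Citri medium library 1, and 62 to 71 with a library left out. No gene named above that was called reversed its direction. The replicate numbers showed no clear pairing of the samples. Deviations of same-numbered Citri high and vehicle libraries correlated at 0.112, -0.088 and 0.0721, and those of libraries with unlike numbers at -0.161 to 0.0958. With 3 libraries a group, such values cannot settle whether samples were paired. With the replicate number as a block the count against vehicle was 8, all of them shared. Why the counts moved was not tested. Depth limits CYP1A1, which had 10 to 60 counts a library.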

Other observations

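Some genes lay above vehicle at 500 as well as at 20 µg/mL of Citri. KLF2, a Krüppel-like factor, had 8.53, 8.16 and 8.47 CPM in Citri high and 4.99, 5.72 and 5.97 CPM in vehicle (log2 fold 0.60 ± 0.17, SE, edgeR adjusted p = 0.385). At the low dose it had 8.84, 7.03 and 8.38 CPM, and the log2 fold of high over low dose was 0.05 ± 0.16 (SE). SREBF1 had a log2 fold of 0.21 ± 0.07 over vehicle and 0.02 ± 0.07 over the low dose (SE). RELB, a subunit of NF-kB, had 15.8, 18.1 and 16.6 CPM in Citri high and 14.9, 13.9 and 14.0 CPM in vehicle, with 16.1, 16.1 and 17.6 CPM at the low dose. Of the genes called at the high dose, CYP1B1 (0.26 ± 0.10), SLC29A2 (0.24 ± 0.09) and TIPARP (0.16 ± 0.11) were also above every vehicle library at the low dose. The values are log2 folds of low dose over vehicle with SE, each with an edgeR adjusted p of 1.0. How many of all genes lay so at the low dose was not counted. These genes were called against the same vehicle libraries, so that the low and high dose comparisons are not independent. Vehicle and Citri differ in set label, and DMSO was labelled for vehicle alone. Set, solvent and extract thus cannot be told apart for any of these genes.

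Lysosomal and autophagy genes held 6 of 16 members higher in Citri high than in vehicle without overlap (7.9% of all genes), with 0 called and a median log2 fold of 0.03. NEU1, a lysosomal sialidase, had 14.4, 17.2 and 16.05 CPM in Citri high and 13.0, 13.8 and 13.5 CPM in vehicle, with 14.8 to 15.5 CPM at the low dose. Its Citri high libraries spanned the low dose values.

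Of 18 genes of DNA replication and the G1/S transition, 15 had a log2 fold below 0 against vehicle and 6 were lower without overlap (7.83% of all genes), with a median of -0.03 and 0 called. The interferon response list had a median of 0.10 over 12 genes, 10 of them above 0 and 1 higher without overlap, a share near the 7.9% of all genes. Circadian clock genes had a median of -0.04 over 18 genes, and DBP among them had 2.61, 2.42 and 1.93 CPM in Citri high and 2.703, 3.10 and 3.14 CPM in vehicle (log2 fold -0.36 ± 0.17, SE, unadjusted p = 0.035).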
